A study of Mus musculus with 44 samples.

Results

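NPAS4 and 4 transcription factors of its protein family were examined in the mouse dorsal hippocampus after contextual fear conditioning (CFC). The 5 genes were chosen by their symbols, of 27179 genes in the count files, and are Npas4, Arnt, Arnt2, Npas2 and Npas3. All 5 passed the filter on low counts in all 14 comparisons. Their gene identifiers in the files are 225872, 11863, 11864, 18143 and 27386 in that order. Earlier results of these data, the rise of Npas4 at 1 h among them, were known when the genes were listed, so that rise, and the return from it, are described here without a test and stay out of the counts of called genes.

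Libraries came from 36 mice, 1 mouse each, 7 to 8 weeks old, from an F2 intercross of C57BL/6J and 129S2/Sv. WT mice were compared with mice homozygous for the Kdm5b ΔARID allele, named Kdm5b Δ/Δ below, in which exons 2 to 4 of the histone demethylase gene Kdm5b are deleted in the germline and so in every cell type. Mice were either naive (0 h) or killed 1 or 3 h after CFC, in which 3 foot shocks of 0.7 mA and 2 s were given in an unfamiliar chamber. Each of the 6 groups held 6 libraries, 3 labelled male and 3 labelled female. The 1 h and 3 h mice had been conditioned in the chamber and the 0 h mice had not, so handling, chamber and shock were not separated.

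Basic helix-loop-helix PAS (bHLH-PAS) factors bind DNA as pairs. Their PAS domains hold the pair together and their basic regions touch the DNA. Npas4 is an immediate early gene of neurons: its transcription is switched on by calcium entry during activity, and the protein needs a general partner, ARNT or ARNT2, to bind DNA. ARNT2 is the neuronal form of the partner, and ARNT serves the hypoxia and dioxin responses in many tissues. NPAS2 is the relative of CLOCK that pairs with BMAL1 in the forebrain clock, and NPAS3 acts in neural development and pairs with ARNT proteins.

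Npas4 lies on chromosome 19 (GRCm38, positions 4984353 to 5003439, minus strand), Arnt on chromosome 3 (95434367 to 95497240, plus strand), Arnt2 on chromosome 7 (84246274 to 84411741, minus strand), Npas2 on chromosome 1 (39193702 to 39363240, plus strand) and Npas3 on chromosome 12 (53248026 to 54072173, plus strand), as RefSeq annotates them. The promoters of Npas4 and Arnt are shown because the activity-induced gene and its ubiquitous partner both carry the core of the cAMP response element there, the letters TGACG or, on the other strand, CGTCA. Each line gives the 250 bases before 1 transcript start that the RefSeq promoter table uses for the gene (GRCm38.p6, strand of the gene, 5′ to 3′), at chr19:4989972-4990221 for Npas4 and chr3:95434140-95434389 for Arnt, with every TGACG or CGTCA in capitals. The spans given above join all RefSeq transcripts of a gene, so both windows lie partly or wholly inside them, and other starts were not searched.
Npas4: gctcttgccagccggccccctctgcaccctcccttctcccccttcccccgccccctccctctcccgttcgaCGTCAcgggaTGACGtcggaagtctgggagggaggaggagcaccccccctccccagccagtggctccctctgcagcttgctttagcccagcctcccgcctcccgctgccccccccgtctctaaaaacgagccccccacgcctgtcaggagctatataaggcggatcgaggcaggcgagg
Arnt: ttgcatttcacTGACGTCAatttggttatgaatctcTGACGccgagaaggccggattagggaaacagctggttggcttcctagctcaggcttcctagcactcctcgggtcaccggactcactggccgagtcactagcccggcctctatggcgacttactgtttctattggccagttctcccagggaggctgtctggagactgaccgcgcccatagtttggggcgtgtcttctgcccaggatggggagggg
Npas4 held CGTCA and TGACG at 179 and 169 bases before the start, and the letters TATAA at 26 bases before it. Arnt held the full element TGACGTCA at 239 bases before the start, inside which TGACG and CGTCA overlap, and a further TGACG at 214 bases. Arnt2, Npas2 and Npas3 held neither form in their windows. Of 32851 RefSeq promoter windows of 250 bases, 17.8% held TGACG, 1.55% held TGACGTCA and 22.8% held TATAA, each searched on both strands. NPAS4 pairs are known to read TCGTG, and of the 5 windows only that of Npas2 held it, against 13.3% of all windows. These are matches of letters and say nothing of binding.

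Reads were counted per gene, and levels are given as CPM, the count of a gene relative to the TMM-scaled library total. Library totals ran from 40274435 to 107000233 counts, so Npas4 rested on 266 to 1677 counts per library and the other genes on 578 (Npas3) to 27509 (Arnt2). Kdm5b, the targeted gene, had medians of 86.9, 91.2 and 88.8 CPM in WT and 80.2, 87.4 and 83.8 CPM in Kdm5b Δ/Δ mice at 0, 1 and 3 h. Its log2 fold change over all times was -0.08 (SE 0.02), with an adjusted p of 0.0581 by edgeR, and -0.11 (adjusted p 0.00113) without the 2 libraries described next. Whole-gene counts include the exons that the allele keeps, so this level checks the labels only weakly. All 5 neuron markers and all markers of dentate granule cells, CA1 and CA3 were detected at a mean of 1 CPM or more. The summed level of the 4 choroid plexus markers ran from 42 to 7850 CPM over the libraries and that of the 5 neuron markers from 8654 to 12245 CPM. In 2 libraries, the one labelled WT 1 h male 1 and the one labelled Kdm5b Δ/Δ 3 h female 2, the sex transcripts went against the label. The first held 51186 counts of Xist and 0 of the Y transcripts, the second 36 and 10239. Whether the 2 were exchanged, which would make their genotype and time labels wrong too, was not tested. They are kept under their labels here.

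The level of Npas4 was described first in each group. In naive WT mice, Npas4 was lowest at 5.35, with a median of 7.47 and a highest value of 9.84 CPM. At 1 h after CFC, WT values ran from 9.90 to 23.3 CPM with a median of 16.2. All 6 WT values at 1 h were above all 6 naive WT values, and 0.288% of 14577 genes with a mean of 1 CPM or more did not overlap between these groups. At 3 h, WT values ran from 5.54 to 17.99 CPM with a median of 8.38, and 5 of the 6 lay below every WT value at 1 h.

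In naive Kdm5b Δ/Δ mice, Npas4 ran from 6.58 to 15.8 CPM with a median of 8.47. At 1 h the values ran from 9.85 to 17.4 CPM with a median of 12.8. The 1 h and naive groups overlapped in the mutants, where 2 of 6 values at 1 h lay above all naive values. That overlap came from the library of naive female 1, since the highest of the other 5 naive mutants was 9.23 CPM. At 3 h the mutant values ran from 6.05 to 18.6 CPM with a median of 9.16, and the highest was the library labelled female 2.

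**Figure D1:**
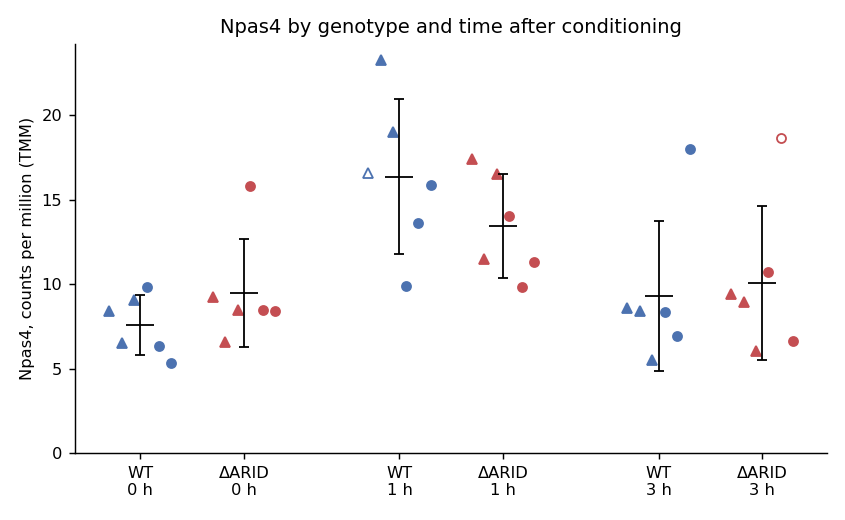
Npas4 level in CPM (TMM-scaled) in each library of the 6 groups (blue WT, red Kdm5b Δ/Δ; triangles labelled male, circles labelled female; open symbols mark the 2 libraries against their sex label), with the mean and SD of 6 libraries in black. WT values at 1 h (9.90 to 23.3 CPM) lie above all naive WT values (5.35 to 9.84 CPM), and both 3 h groups hold 1 value near 18 CPM.

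The mean of Npas4 was 16.4 ± 4.57 CPM (SD, n = 6) in WT at 1 h, followed by 13.4 ± 3.05 in mutants at 1 h, 10.1 ± 4.55 in mutants at 3 h, 9.49 ± 3.21 in naive mutants, 9.31 ± 4.41 in WT at 3 h and 7.59 ± 1.77 in naive WT. Each neighbour in that order differed from the next by less than the larger SD of the pair. Without the library labelled Kdm5b Δ/Δ 3 h female 2 the mean of mutants at 3 h was 8.35 ± 1.96 CPM (n = 5), below naive mutants and WT at 3 h, and without the library labelled WT 1 h male 1 that of WT at 1 h was 16.3 ± 5.11 CPM (n = 5). The fitted log2 fold change at 1 h against 0 h was 1.08 (SE 0.17) in WT and 0.50 (SE 0.21) in mutants, and 0.82 (SE 0.19) over both genotypes. At 3 h against 1 h the log2 fold change of Npas4 was -0.81 (SE 0.29) in WT and -0.43 (SE 0.27) in mutants. Without WT 3 h female 3 the WT value was -1.11, and without the library labelled Kdm5b Δ/Δ 3 h female 2 the mutant value was -0.69.

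By 3 h, Npas4 was not shown to differ from the naive level. Its log2 fold change at 3 h against 0 h was 0.27 (SE 0.26, adjusted p 0.87) in WT, 0.07 (SE 0.24, adjusted p 0.966) in mutants and 0.18 (SE 0.19, 95% interval -0.21 to 0.56, adjusted p 0.723) over both genotypes by edgeR. In each genotype 1 library carried the sign. Without WT 3 h female 3 the WT value was -0.01, and without the library labelled Kdm5b Δ/Δ 3 h female 2 the mutant value was -0.14.

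The genotypes were then compared at each time, which asks whether loss of the ARID domain changed Npas4 before or after learning. Npas4 did not pass the test at any time by edgeR. The log2 fold change in mutants against WT was 0.30 at 0 h (SE 0.21, 95% interval -0.15 to 0.76, adjusted p 0.877), -0.27 at 1 h (SE 0.14, interval -0.58 to 0.04, adjusted p 0.638) and 0.11 at 3 h (SE 0.28, interval -0.51 to 0.73, adjusted p 0.96). In CPM, 5 of 6 naive mutants lay above the naive WT mean and 4 of 6 mutants at 1 h lay below the WT mean. At 0 h the value was 0.11 without naive mutant female 1, and at 3 h it was -0.09 without the library labelled female 2. Over all times the log2 fold change was 0.04 (SE 0.16, interval -0.27 to 0.36, adjusted p 0.934).

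The difference between genotypes in the 1 h response, tested as an interaction, was -0.61 on the log2 scale for Npas4 (SE 0.29, 95% interval -1.23 to -0.0025), the mutant rise being the smaller. Its unadjusted p was 0.0491 and its adjusted p over 17907 genes was 0.999 by edgeR, so it was not called. Without naive mutant female 1 the difference was -0.37. The difference in the 3 h response was -0.17 (SE 0.37, adjusted p 1). Of all genes, 0% were called in either interaction, and of the 5 genes 0 were called, with Npas4 at 1 h alone under an unadjusted p of 0.05, beside 3.78% of all genes at 1 h and 1.52% at 3 h, and 0 called by DESeq2.

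Labelled sexes were also described apart. In WT at 1 h, Npas4 was 19.6 ± 3.39 CPM in mice labelled male and 13.1 ± 3.00 CPM in mice labelled female (SD, n = 3). In mutants at 1 h it was 15.1 ± 3.17 and 11.7 ± 2.14 CPM. In naive WT the values were 8.01 ± 1.32 and 7.17 ± 2.36 CPM. In the other 3 groups the mean of mice labelled female was the higher, at 10.9 ± 4.25 against 8.09 ± 1.36 CPM in naive mutants, 11.1 ± 6.01 against 7.52 ± 1.71 in WT at 3 h and 12.01 ± 6.09 against 8.12 ± 1.81 in mutants at 3 h. Each of these 3 female groups held 1 of the libraries with a high Npas4 described above. Without the library labelled Kdm5b Δ/Δ 3 h female 2, whose sex transcripts go against that label, the last female mean was 8.70 CPM (n = 2). One of the WT libraries labelled male at 1 h is among the 2 against their label, at 16.6 CPM, below the other 2, whose mean was 21.1 CPM.

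Levels of different genes were compared per kilobase of exon (log axis in the plot by gene). CPM was divided by the joined length of all GENCODE exons of a gene, not by that of the expressed transcripts. The order of genes at close levels, and their ratios, depend on this choice. Arnt2 was the most abundant of the 5, at a median of 34.6 CPM per kb over the 36 libraries (28.6 to 41.5). Arnt followed at 4.78 (3.83 to 5.80) and Npas2 at 4.65 (3.24 to 6.33), whose ranges overlapped. Npas3 was at 2.94 (2.15 to 3.66) and Npas4 at 2.25 (1.29 to 5.63), and these ranges overlapped too. Of the general partners, Arnt2 exceeded Arnt per length in 36 of 36 libraries, by 5.57 to 10.7 times.

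**Figure D2:**
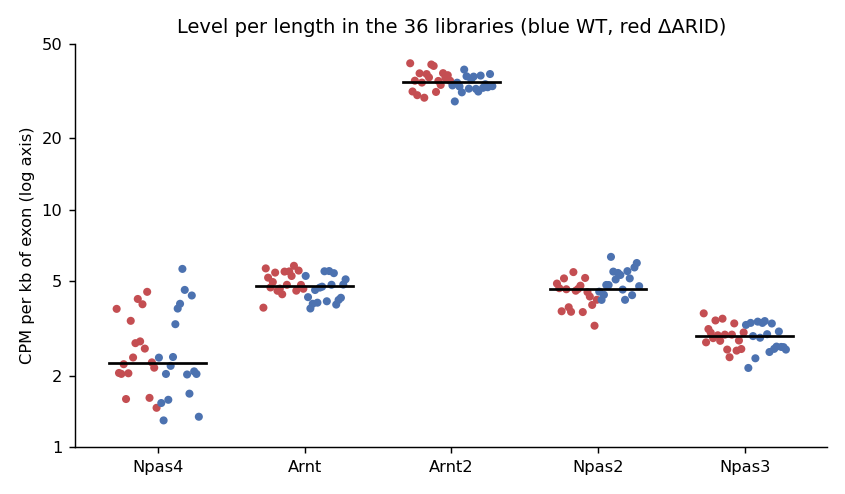
Level per length (CPM per kb of exon, log axis) of the 5 genes in 36 libraries (blue WT, red Kdm5b Δ/Δ, 1 point per library, black line the median). Arnt2 lies between 28.6 and 41.5 in all libraries, and Npas4 spreads the most, from 1.29 to 5.63.

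Per length, Npas4 stayed below both general partners in nearly all libraries. The ratio of Npas4 to Arnt2 had a median of 0.0549 in naive WT, 0.109 in WT at 1 h and 0.0546 in WT at 3 h. In mutants it was 0.0622, 0.0892 and 0.0608. Npas4 reached or passed the level of Arnt in 2 of 36 libraries, 1 in WT at 1 h and 1 in WT at 3 h. These ratios concern RNA and not protein.

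The genes other than Npas4 varied less across libraries, with the highest library 1.45 to 1.95 times the lowest against 4.35 times for Npas4. Arnt ran from 30.7 to 42.1 CPM (median 33.4) in naive WT, from 32.9 to 44.2 (median 38.3) at 1 h and from 31.9 to 43.3 (median 36.4) at 3 h. In mutants Arnt ran from 30.9 to 45.3 (median 40.55), from 35.2 to 44.0 (median 37.9) and from 36.5 to 46.5 (median 40.3). All of these groups overlapped. Over all times the log2 fold change of Arnt in mutants against WT was 0.11 (SE 0.05, 95% interval 0.0046 to 0.22), with an unadjusted p of 0.0414 and an adjusted p of 0.302 by edgeR, and was not called. Its value at 1 h against 0 h was 0.08 (SE 0.06, adjusted p 0.665) and at 3 h against 0 h 0.06 (SE 0.06, adjusted p 0.702).

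Arnt2 had medians of 256, 261 and 258 CPM in WT and 267, 282 and 273 CPM in mutants at 0, 1 and 3 h. Single libraries ran from 220 to 319 CPM, a spread of 1.45 times from the lowest to the highest. Its log2 fold change was 0.07 between genotypes (SE 0.04, 95% interval -0.02 to 0.15, adjusted p 0.471), 0.04 at 1 h (SE 0.05, interval -0.07 to 0.14, adjusted p 0.828) and 0.04 at 3 h (SE 0.05, interval -0.07 to 0.14, adjusted p 0.802).

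Npas2 was the gene of the 5 with the smallest p between genotypes at 3 h and over all times, though not at 0 or 1 h. In WT it had medians of 22.4, 24.9 and 25.5 CPM at 0, 1 and 3 h, with ranges of 19.97 to 30.3, 19.98 to 26.3 and 20.9 to 28.6. In mutants the medians were 22.3, 22.0 and 20.3 CPM, with ranges of 17.9 to 24.6, 17.7 to 26.2 and 15.5 to 24.7. At 3 h, all 6 mutants lay below the WT mean of 25.1 CPM and 4 of 6 lay below every WT value.

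The log2 fold change of Npas2 in mutants against WT at 3 h was -0.32 (SE 0.10), with an unadjusted p of 0.0095 and an adjusted p of 0.682 by edgeR. Over all times it was -0.20 (SE 0.06, 95% interval -0.32 to -0.07), with an unadjusted p of 0.00397 and an adjusted p of 0.11. Npas2 was therefore not called in either. Under the alternatives run, the estimate over all times stayed negative and its adjusted p ran from 0.0591 (DESeq2) to 0.153 (leaving out single libraries). Within labelled sexes at 3 h, WT and mutant means were 26.2 and 18.2 CPM in mice labelled male and 23.97 and 22.3 CPM in mice labelled female (n = 3 each). Against 0 h, Npas2 gave log2 fold changes of 0.02 at 1 h (SE 0.08, adjusted p 0.941) and 0.01 at 3 h (SE 0.08, adjusted p 0.961). Summed neuron markers at 3 h spanned 9205 to 11574 CPM among WT and 8654 to 11651 CPM among mutant libraries, and summed choroid plexus markers 42 to 7850 and 51.7 to 3607 CPM. Over all times, all 4 choroid plexus markers had negative estimates in mutants and an unadjusted p under 0.05 (median log2 fold change -1.63), and 3 of 4 striatum and 3 of 4 thalamus markers had positive estimates and an unadjusted p under 0.05 (medians of all 4, 0.35 and 0.26). Of the 6 inhibitory neuron markers, 3 were under that p, 2 of them with positive estimates. All 4 astrocyte markers had positive estimates, 2 of them under that p, and all 5 neuron markers negative estimates, 1 under that p. None of these was called by edgeR, while the dentate granule marker C1ql2 was, with a higher level in mutants. Their part in the genotype values of Npas2 and of Hif1a below was not tested, and in bulk tissue fewer cells of a type and less RNA per cell cannot be told apart. The paper crossed mutant males with females of a different strain and intercrossed the offspring. Around Kdm5b, mutants therefore carry DNA of the paternal strain and WT mice that of the maternal strain. For genes linked to Kdm5b, strain and genotype cannot be told apart. Linkage of Npas2, on chromosome 1, to Kdm5b was not tested, nor was any part of strain in its genotype values.

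Npas3 had medians of 18.6, 18.9 and 15.8 CPM in WT and 18.5, 17.3 and 17.4 CPM in mutants. The narrowest group was WT at 3 h, where 5 of 6 libraries lay between 15.5 and 15.9 CPM. Between 1 and 3 h in WT mice Npas3 gave a log2 fold change of -0.19 (SE 0.07), with an unadjusted p of 0.0234 and an adjusted p of 0.604 by edgeR. All 6 WT values at 3 h lay below the WT mean at 1 h. Over both genotypes it was -0.03 at 1 h (SE 0.07, adjusted p 0.909) and -0.12 at 3 h (SE 0.07, adjusted p 0.406), and 0.03 between genotypes (SE 0.06, adjusted p 0.833).

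**Figure D3:**
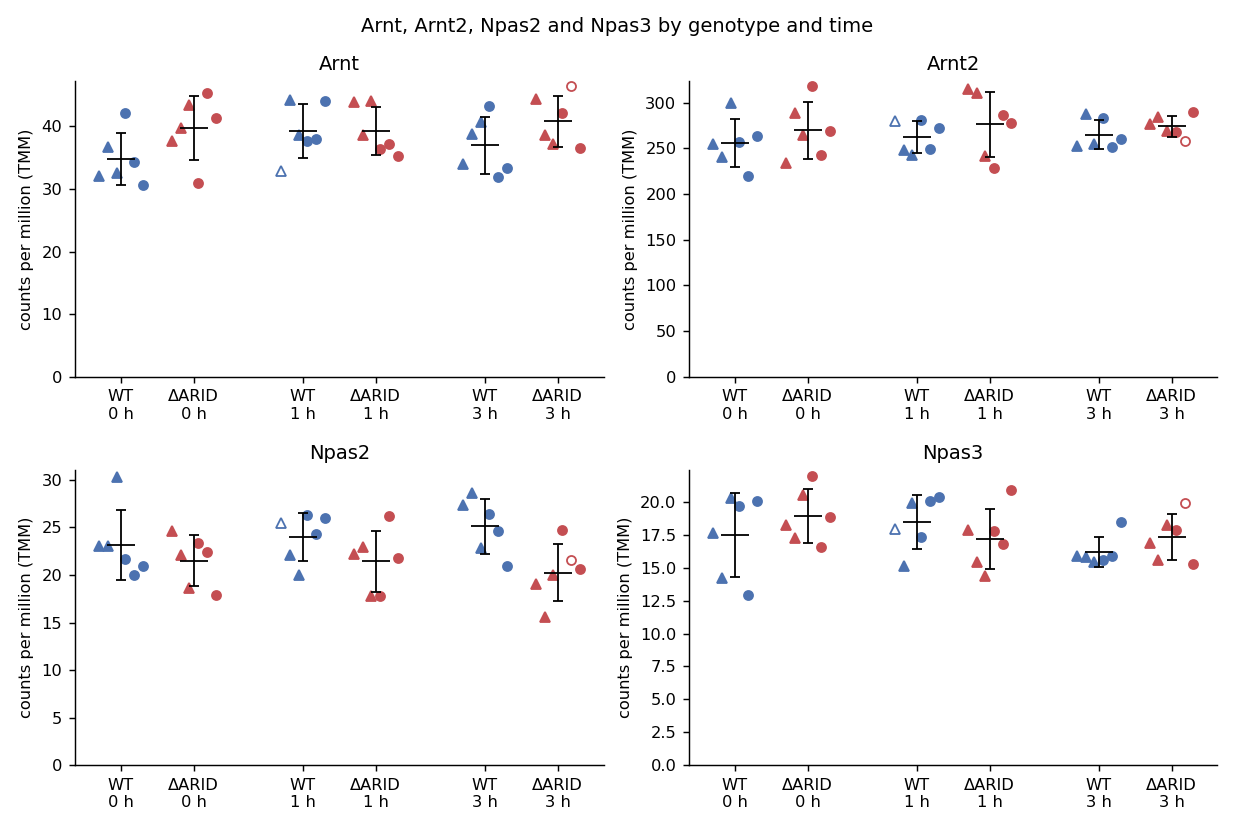
Levels of Arnt, Arnt2, Npas2 and Npas3 in CPM (TMM-scaled), drawn per library as for Npas4 (open symbols mark the 2 libraries against their sex label), with mean and SD of 6 libraries. Mutant Npas2 values at 3 h (15.5 to 24.7 CPM) lie low against WT (20.9 to 28.6 CPM), while the groups overlap for every gene.

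Counted over the 5 genes, 0 were called between genotypes at 0, 1 or 3 h, where 0%, 0% and 0.0115% of all genes were called. Under an unadjusted p of 0.05 there were 0, 0 and 1, beside 6.15%, 8.61% and 6.36% of all genes, and DESeq2 called 0 at each time. In WT, 0 of the 4 genes other than Npas4 were called between any pair of times by edgeR, and 0% of all genes were called at 1 h against 0 h, 3 h against 0 h or 3 h against 1 h. Unadjusted, 0, 0 and 1 of the 4 passed in WT, beside 5.36%, 8.23% and 7.41% of all genes, and DESeq2 called 0 of them. In mutants, 0 of the 4 were called, beside 0.312% of all genes at 1 h against 0 h and 0% in the 2 comparisons at 3 h. Unadjusted, 0 of the 4 passed in each, beside 11.1%, 8.57% and 8.04% of all genes, and DESeq2 called 0.

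In the fit of all 36 libraries, 0 of 5 were called between genotypes (1.3% of all genes), with 2 of 5 under an unadjusted p of 0.05, beside 15.2% of all genes, and 0 called by DESeq2. At 1 h against 0 h, 0 of the 4 genes other than Npas4 were called (1.28% of all genes), with 0 under an unadjusted p of 0.05, beside 12.7% of all genes, and 0 called by DESeq2. At 3 h against 0 h, 0 of 5 were called (2.6% of all genes), with 0 under an unadjusted p of 0.05, beside 16% of all genes, and 0 called by DESeq2. The 1 h and 3 h comparisons share their naive libraries.

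**Figure D4:**
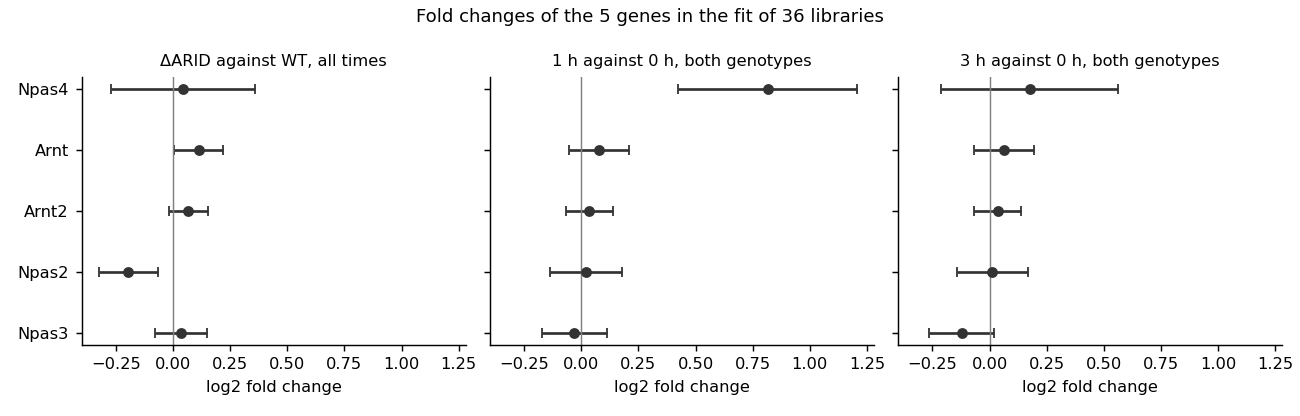
Log2 fold changes of the 5 genes with 95% intervals in the edgeR fit of 36 libraries, between genotypes (left), at 1 h (middle) and at 3 h (right) against 0 h. Npas4 at 1 h stands at 0.82 (0.42 to 1.21), and Npas2 between genotypes at -0.20 (-0.32 to -0.07).

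Across libraries, the 5 genes did not vary together beyond the adjusted threshold. Log2 CPM was centred within the 6 groups and 10 pairs were compared over 36 libraries with 100000 permutations within groups. The largest was Arnt2 with Npas2, with Pearson r 0.457 (permutation p 0.0129, adjusted 0.129), Spearman rho 0.447 (permutation p 0.0124, adjusted 0.124) and r 0.393 without the 2 libraries farthest from the median of Arnt2. Npas4 gave r 0.314 with Npas3 (permutation p 0.0525, adjusted 0.262; rho 0.31, permutation p 0.0827, adjusted 0.414), which was 0.179 without the 2 farthest libraries. With Arnt and Arnt2, Npas4 gave r 0.128 and -0.00585 (adjusted permutation p 0.696 and 0.97; rho 0.215 and -0.0875, adjusted permutation p 0.5 and 0.781).

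Of 14576 tested genes with a mean of 1 CPM or more, the 6 most like Npas4 over the 36 libraries were Junb (Pearson r 0.777), Arc (0.744), Fos (0.733), Srsf7 (0.724), Nr4a1 (0.712) and Traf6 (0.705). Junb, Fos and Nr4a1 encode immediate early transcription factors and Arc a synaptic early gene product, while Srsf7 encodes a splicing factor and Traf6 a signalling adaptor. With group means subtracted, r was 0.674, 0.628, 0.571, 0.522, 0.566 and 0.548, which ranked them 3, 6, 9, 34, 10 and 17 among all genes, so other genes came closer to Npas4 within groups. The mean of Junb was 57.6 ± 7.32 CPM in naive WT and 93.2 ± 25.8 at 1 h (SD, n = 6). In mutants it was 59.2 ± 20.8 and 104 ± 14.5 CPM, so its higher 1 h mean was in mutants and that of Npas4 in WT, each within 1 SD of the other genotype. The lowest WT value of Junb at 1 h, 59.0 CPM against at least 74.8, was the library labelled WT 1 h male 1. Of the other 4 genes, Npas3 gave r 0.306 with Npas4, Arnt 0.248, Arnt2 0.0558 and Npas2 -0.0287. All of these values share library depth and the same 36 mice and are descriptions.

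Npas4 and the other early genes were also compared in single libraries that stood at the end of their group. In the library labelled WT 1 h male 1, which is against its sex label, Fos (11.6 CPM), Arc (113), Junb (59.0), Nr4a1 (48.9) and Egr1 (106) were each the lowest of the 6 WT libraries at 1 h, yet Npas4 at 16.6 CPM was above 3 of the other 5. In naive WT male 3, Fos (5.17 CPM) and Junb (46.5) were the lowest of the 6 and Arc (106) was above 1 of the other 5. In that library Egr1 (133 CPM) was above 3 of the other 5, and Nr4a1 (70.2 CPM) and Npas4 (9.08 CPM) were each above 4. In the library labelled Kdm5b Δ/Δ 3 h female 2, Fos was 44.0 CPM against at most 11.7 in the other 5, and Npas4 was 18.6 against at most 10.7. In WT 3 h female 3, Npas4 at 17.99 CPM stood apart from at most 8.61 in the others, while Fos was 17.3 against at most 15.4. In both of the 3 h libraries Junb, Arc, Nr4a1 and Egr1 were the highest of their group as well. In naive Kdm5b Δ/Δ female 1, with the highest Npas4 of its group, Junb (87.0 CPM against at most 82.3) and Arc (200.4 against at most 186) were the highest too, and Fos, Nr4a1 and Egr1 were each above 4 of the other 5.

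Genes reported as NPAS4 targets were described next. Of the 8 listed, 4 rose at 1 h over both genotypes and 0 fell, beside 1.28% of all genes called. These were Fos, with a log2 fold change of 1.25 (SE 0.29, adjusted p 0.0242), Arc with 0.88 (SE 0.22, adjusted p 0.0394), Egr1 with 0.72 (SE 0.16, adjusted p 0.0134) and Homer1 with 0.26 (SE 0.05, adjusted p 0.00879). Fos, Arc and Egr1 are themselves immediate early genes, and Homer1 encodes a scaffold of glutamate receptors. The authors had already reported the rise of Fos, Arc and Egr1 after CFC, so these calls were known in advance. The count is a description, and nothing about NPAS4 targets is read from it. All 8 had positive estimates at 1 h, with a median of 0.27 against -0.01 over all genes. Bdnf, the neurotrophin best known as a target, was at 0.10 (SE 0.05, adjusted p 0.429), and was named after its value was seen. The count was 2 without naive Kdm5b Δ/Δ female 3. It was 5 without the 2 libraries against their sex label, beside 419 of 18283 genes tested. DESeq2 called Nptx2 (adjusted p 0.0192) and Csrnp1 (adjusted p 0.0234) as well as the 4, beside 417 of 15241 genes tested.

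In mutants alone, 2 of the 8 rose at 1 h beside 0.312% of all genes called, Egr1 (0.87, SE 0.13, adjusted p 0.0149) and Homer1 (0.32, SE 0.06, adjusted p 0.0279). DESeq2 called 5, beside 363 of 18106 genes tested, and the fit of all 36 libraries 0, beside 51 of 18186. The rise of Egr1 was known in advance here too. In WT alone 0 of 8 were called by edgeR or DESeq2, with 4 under an unadjusted p of 0.05, beside 5.36% of all genes, and all 8 estimates positive. The difference between genotypes in the response was tested, and 0 of 8 were called at 1 h, with 0 under an unadjusted p of 0.05, beside 3.78% of all genes, and 0 called by DESeq2. Between genotypes over all times 0 of 8 were called, beside 1.3% of all genes, again with 0 under an unadjusted p of 0.05, beside 15.2% of all genes. Plk2 and Fos stood at 0.00 (SE 0.04, adjusted p 0.991) and 0.21 (SE 0.24, adjusted p 0.735), and Fos at -0.06 (adjusted p 0.916) without the 2 libraries against their sex label. At 3 h against 0 h, 0 of 8 were called by edgeR, beside 2.6% of all genes, and 2 were under an unadjusted p of 0.05, beside 16% of all genes. DESeq2 called 1, beside 818 of 14787 genes tested.

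Upstream of Npas4, 12 genes of the route from calcium entry to its promoter were listed. At 1 h over both genotypes 2 of 12 rose and 0 fell, beside 1.28% of all genes called: Srf, which encodes serum response factor, by a log2 fold change of 0.20 (SE 0.04, adjusted p 0.00353) and Creb1, which encodes CREB, by 0.13 (SE 0.03, adjusted p 0.013). The median of the 12 was 0.06. In mutants alone Srf rose by 0.24 (SE 0.04, adjusted p 0.0255), a call lost without naive mutant female 3. Between genotypes over all times 0 of 12 were called, beside 1.3% of all genes, with 0 under an unadjusted p of 0.05, beside 15.2%. Camk2a, which encodes a calcium-dependent kinase, was at -0.03 (SE 0.06, adjusted p 0.883), and Crebbp, which encodes a CREB coactivator, at 0.06 (SE 0.03, adjusted p 0.351).

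The other bHLH-PAS genes numbered 14, of which 13 passed the filter. Sim1 did not, with at most 0.363 CPM in any library. Between genotypes 1 of 13 fell in mutants, Hif1a, which encodes the hypoxia partner of ARNT, by a log2 fold change of -0.09 (SE 0.02, adjusted p 0.0109), beside 1.3% of all genes called. Hif1a had means of 95.3 ± 3.39, 92.8 ± 4.09 and 94.4 ± 3.91 CPM in WT and 88.7 ± 2.12, 88.1 ± 3.53 and 89.0 ± 2.92 CPM in mutants (SD, n = 6). Without the 2 libraries against their sex label, Ahrr, which encodes a repressor of the dioxin receptor, was called as well, at 0.44 (adjusted p 0.0171), against 0.35 (adjusted p 0.105) with them. At 1 h and 3 h against 0 h, 0 of 13 were called by edgeR, with 3 and 4 under an unadjusted p of 0.05, beside 12.7% and 16% of all genes. DESeq2 called 0 and 1, beside 417 of 15241 and 818 of 14787 genes tested. Hif3a at 3 h was at 1.16 (SE 0.33, adjusted p 0.0562) and at 1.24 (adjusted p 0.0332) without the 2 libraries. Bmal1, the partner of NPAS2, and Clock, its relative, were named, like Ahrr and Hif3a, after their values were seen and gave 0.09 (SE 0.06, adjusted p 0.479) and 0.00 (SE 0.03, adjusted p 0.98) between genotypes.

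Clock output genes, which NPAS2 and CLOCK pairs drive, were listed as well. Of 11 listed, 1 rose at 1 h over both genotypes beside 1.28% of all genes called, Per1, by a log2 fold change of 0.53 (SE 0.10, adjusted p 0.00544). At 3 h, 3 of 11 rose and 0 fell, beside 2.6% of all genes called: Bhlhe41 by 0.27 (SE 0.06, adjusted p 0.0162), Per2 by 0.35 (SE 0.09, adjusted p 0.0328) and Per3 by 0.31 (SE 0.09, adjusted p 0.0435). All 11 had positive estimates at 3 h, with a median of 0.20 against -0.01 over all genes. The hour at which mice were killed is not given in the sources used here. Time of day and conditioning therefore cannot be told apart for these genes. The count at 3 h was 1 without naive Kdm5b Δ/Δ female 1. It was 4 by DESeq2, beside 818 of 14787 genes tested, and 4 without the 2 libraries against their sex label, beside 686 of 18283. At 1 h DESeq2 called 2, beside 417 of 15241. Between genotypes over all times 0 of 11 were called by edgeR or DESeq2, beside 1.3% of all genes by edgeR, with 2 under an unadjusted p of 0.05, beside 15.2% of all genes, and estimates of either sign.

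**Figure D5:**
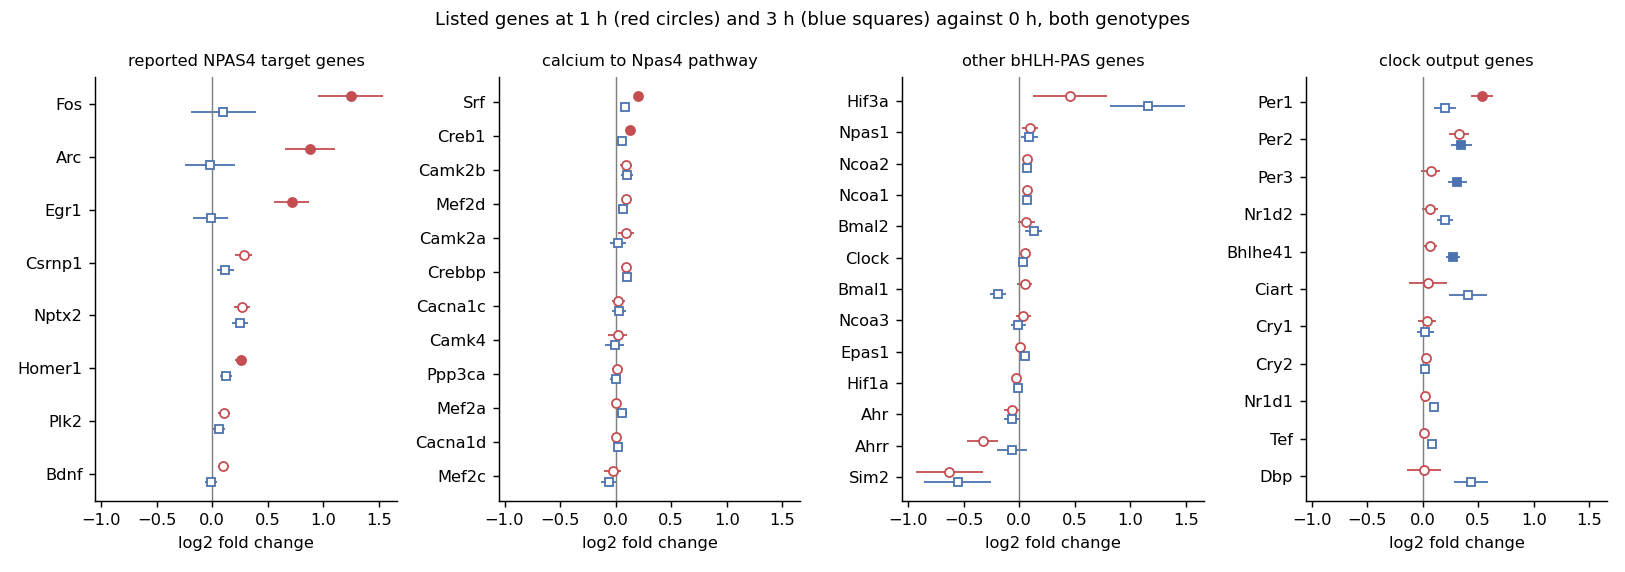
Log2 fold changes with SE at 1 h (red circles) and 3 h (blue squares) against 0 h over both genotypes, for the 4 gene lists. Filled symbols have an adjusted p under 0.05 by edgeR. Fos, Arc, Egr1 and Homer1 are filled at 1 h, and Bhlhe41, Per2 and Per3 at 3 h.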

How the data were processed

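Poly(A) RNA from dorsal hippocampus was sequenced as 150-base pairs. The authors aligned reads with STAR 2.7.8a to mm10 and counted them per gene with featureCounts 2.0.1, as the submitters' processing notes give them; annotation, strand and multi-mapping settings are not given in the sources used here. For each of the 36 libraries the table of read counts by gene from the authors, without normalization, was used here. The paper states that fastq files were deposited as well. The 8 samples of the first cohort were not analysed here. Genes were named from RefSeq (25275 of 27179; the others hold 1.28% of counts). No gene overlapping the 5 genes in RefSeq was itself counted in the files.

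The members and lists were chosen with earlier results of these data known. Counts were fitted with edgeR 4.0.16 (R 4.3.3): filterByExpr with a minimum count of 10, TMM, labelled sex as covariate, robust quasi-likelihood F-test, Benjamini-Hochberg over all genes, called at an adjusted p under 0.05. Pairwise comparisons used their 12 libraries, interactions 24, and an additive fit of genotype, time and sex all 36. Log2 CPM used a prior count of 2. Intervals are 95% intervals of the fit. The scripts were tested on simulated data. Alternatives were DESeq2 1.42.0, RLE factors, no filter, no sex covariate, 1 fit of all 36 libraries, a replicate block, and leaving out libraries singly or the 2 against their sex label.

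Named genes were the 5 members, with Npas4 in all comparisons and the others in the 36-library fit or at an unadjusted p under 0.05. From each list the called genes were named, at most 4 per comparison, and otherwise those with the highest and lowest median CPM. Libraries are single mice.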

Additional observations from a re-analysis of the deposited data

Results flagged for a closer look

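In 30 groups of 6 libraries (5 genes in 6 groups) the gap of an extreme library to its neighbour was compared with the range of its group. In 5 groups the gap passed Dixon's 95% critical value, and chance alone passes about 1 group in 20. Npas4 was highest in naive Kdm5b Δ/Δ female 1, at 15.8 CPM against 9.23 in the next library. It was highest in WT 3 h female 3, at 17.99 CPM against 8.61, and that library also held the highest Npas3 of WT at 3 h, at 18.4 CPM against 15.9. Npas4 was highest in the library labelled Kdm5b Δ/Δ 3 h female 2, at 18.6 CPM against 10.7, 1 of the 2 libraries against their sex label. Npas2 was highest in naive WT male 3, at 30.3 CPM against 23.1.

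WT 3 h female 3 also held the highest summed dentate granule markers of its group, at 445 CPM against at most 374 in the others. It was also the highest for summed neuron markers (11574 CPM against at most 11012), microglia markers (238 against at most 197), astrocyte markers (1382 against at most 1332) and inhibitory neuron markers (811 against at most 804), and the lowest for thalamus markers (18.8 against at least 29.9). Naive Kdm5b Δ/Δ female 1 held the lowest summed inhibitory neuron markers of its group, at 775 CPM against at least 803, and the lowest thalamus markers, at 33.8 CPM against at least 34.4. The library labelled Kdm5b Δ/Δ 3 h female 2 held the lowest dentate granule markers of its group, at 259 CPM against at least 332, and the lowest summed neuron markers, at 8654 CPM against at least 9967. It also held the highest summed oligodendrocyte markers, at 9751 CPM against at most 7360, and inhibitory neuron markers, at 977 CPM against at most 818. Striatum markers (44.4 CPM against at most 39.4) and astrocyte markers (1447 against at most 1412) were the highest of the group there too. Naive WT male 3 held the lowest dentate granule markers of its group, at 200.01 CPM against at least 256, and the highest summed CA1 markers, at 696 CPM against at most 646. It also held the lowest choroid plexus markers (44.9 CPM against at least 196) and CA3 markers (102.6 against at least 103.1), and the highest endothelial markers (139 against at most 116) and inhibitory neuron markers (864 against at most 839). The part of these markers in the levels of Npas4, Npas3 and Npas2 was not tested.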

How the results depend on the processing

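Counts of called genes among the 5 were the same under 353 alternatives and differed under 3. At 1 h against 0 h in WT, DESeq2 called 1, and leaving out single libraries gave 0 to 1 (1 without naive WT female 1). Over both genotypes at 1 h the range was 0 to 1 (0 without WT 1 h male 3). The gene in question was Npas4, whose rise was known, and nothing is read from these counts. The cause was not tested. The sign of some small estimates turned. Between genotypes at 3 h, Npas4 gave -0.0909 to 0.344 with single libraries left out and -0.0909 without the 2 libraries against their sex label. At 3 h against 0 h it gave -0.0112 to 0.388 in WT and -0.139 to 0.226 in mutants (-0.139 without the 2 libraries). The interaction at 3 h ran from -0.407 to 0.0678, and the genotype difference over all times from -0.0387 to 0.136 (-0.0323 without the 2 libraries). Npas2 over both genotypes ran from -0.0141 to 0.0600 at 1 h and from -0.0141 to 0.0529 at 3 h. Counts over all genes depended on the setting more. Between genotypes at 0, 1 and 3 h edgeR called 0, 0 and 2 and DESeq2 16, 98 and 50, and without the 2 libraries edgeR called 41 at 1 h and 18 at 3 h. In WT edgeR called 0 and DESeq2 5, 75 and 62 at 1 h against 0 h, 3 h against 0 h and 3 h against 1 h. In mutants edgeR called 54, 0 and 0 and DESeq2 363, 124 and 81, with 26 to 86 at 1 h when single libraries were left out. Over all times 237 were called between genotypes, 556 by DESeq2, 507 without the 2 libraries and 169 (without naive Kdm5b Δ/Δ male 3) to 368 (without the library labelled WT 1 h male 1) with single libraries left out. At 1 h over both genotypes the counts were 232, 417, 419 and 124 to 352, the lowest without WT 1 h male 3 and the highest without the library labelled WT 1 h male 1. At 3 h against 0 h over both genotypes DESeq2 called 818 and edgeR 686 without the 2 libraries, 271 without naive WT male 1 and 724 without naive WT female 2, where all libraries gave 2.6% of 18186 genes. The labels share replicate numbers within sex, but nothing in them says what a number marks. For that reason the libraries were not treated as paired in the main fits. Deviations of same-numbered libraries correlated above 0.1 in 18 of 54 pairs. In 25 of 54 cases a library correlated best with its own number, where chance would give 1 in 3. With the replicate block, Npas4 at 1 h against 0 h over both genotypes was 0.827. Calls over both genotypes then came to 298 at 1 h against 0 h and 619 at 3 h against 0 h. Between genotypes the block gave 5 calls at 1 h and 0 at 3 h, and 37 at 1 h against 0 h in mutants. The lowest count of any of the 5 genes in a library was 266.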
